A study of Homo sapiens with 6 samples.

Results

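Tetraspanins are small membrane proteins that cross the membrane 4 times and gather integrins, immunoglobulin-type proteins, growth factor receptors and proteases into membrane domains. CD82 (also KAI1) is known as a suppressor of metastasis, CD9, CD63 and CD81 as surface markers of exosomes, CD151 as a partner of laminin-binding integrins, and the TspanC8 subgroup as escorts of the protease ADAM10. The 10 tetraspanin genes described here are CD82, CD9, CD63, CD81, CD151, TSPAN3, TSPAN4, TSPAN5, TSPAN14 and TSPAN15, among 20115 genes in the authors' deposited table. They were listed by symbol with the fold changes of this comparison already known, so their values are a description and carry no test. Of the 2014 regions in the authors' deposited table of downstream-of-gene (DoG) transcripts, RNA made beyond a gene's annotated end, 4 bear the name of one of the 10, namely CD82, CD63, CD151 and TSPAN4.

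MDA-MB-231, a human triple-negative breast cancer line, was studied as 3 control libraries and 3 libraries of cells in which UBE3D, a gene for a ubiquitin ligase, was knocked down. Knockdown used hairpins integrated by lentivirus and switched on with doxycycline. Both groups share the line and its medium with 10% serum. Which hairpin, if any, the controls carried, whether they had doxycycline and whether the hairpin cells were 1 clone is not in the labels, which mark each sample as pooled. Ribosomal RNA was removed and stranded read pairs of 75 bp were sequenced. The files give 1 comparison, knockdown over control, without values per library, so depth, the value in each sample and any overlap of the groups are unknown. Separate cultures are not stated, so the deposited standard errors (SE) reflect only how far these libraries differ, which may be technical. Log2 fold changes are the authors' shrunken values, and intervals are 95% intervals from fold change and SE.

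UBE3D, the targeted gene, was lower in the knockdown (log2 fold change -0.80, SE 0.37, adjusted p = 0.00632), with a mean of 36.7 normalized counts, per the authors' deposited table. Its adjusted p was 0.295 in a Wald test on the deposited shrunken values, a test that can only weaken calls. As for the label of the line, the 7 mesenchymal markers had means from 75.1 (CDH2) and 82.6 (SPARC) up to 11376 (AXL) in the authors' deposited table. Means of the 12 luminal markers ran from 9.74 (FOXA1) to 3626 (KRT8), with the receptor genes ESR1 and PGR at 22.2 and 50.2 and the keratin genes KRT18 and KRT19 at 2490 and 1388, per the authors' deposited table. By the authors' DESeq2 test 4 of the 7 mesenchymal markers were lower and 0 higher, against 7.93% lower and 4.62% higher among all genes. Among luminal markers 3 of 12 were lower and 2 higher, and among fibroblast markers 0 of 9 were lower and 2 higher. None of the 7 blood and endothelial markers in the authors' deposited table passed the threshold (DESeq2, 1 at an unadjusted p under 0.05, 0 in the Wald test), and 1 of 7 markers of kidney packaging cells was lower. That 1 is L1CAM (mean 567, adjusted p = 0.208 in the Wald test), counted again below among immunoglobulin-type partners. The called markers CD44, EPCAM and CDH1 are counted again below among receptors and proteases. CD44 and CDH1 also recur among Notch and ADAM10 substrates, so the counts of these lists share genes. Means ran from 14.2 to 168 for fibroblast markers and from 14.3 to 68.9 for blood and endothelial markers. The part of these markers in the results below was not tested. In RNA of whole cultures, fewer cells of a type and less RNA per cell cannot be told apart.

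CD82 had the lowest fold change of the 10. It lies on chromosome 11 (44564427 to 44620363, plus strand, GENCODE 29 on GRCh38). The log2 fold change of CD82 was -1.67 in the authors' deposited table (SE 0.16, 95% interval -1.98 to -1.36), 3.18-fold lower in the knockdown, at a mean of 764 normalized counts and with an adjusted p of 2.55e-24. This value ranked 59 from the lowest among all 20115 genes. The interval of CD82 did not overlap that of any other member. CD82 was also the 1 member lowered by at least 2-fold in the authors' deposited table, where 1.39% of all genes were lower by that much.

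The 3 TspanC8 genes among the members were lower as well. TSPAN15, which steers ADAM10 toward N-cadherin, lies on chromosome 10 (69451473 to 69507669) and showed -0.80 (SE 0.16, 95% interval -1.11 to -0.49, adjusted p = 6.06e-07) in the authors' deposited table, 1.74-fold lower. Its mean of 150 normalized counts was the smallest of the 10. TSPAN5, on chromosome 4 (98470367 to 98658629, minus strand), stood at -0.51 (SE 0.13, 95% interval -0.77 to -0.26, adjusted p = 6.21e-05) in the authors' deposited table. TSPAN14, on chromosome 10 (80454166 to 80533123), stood at -0.27 (SE 0.12, 95% interval -0.50 to -0.04, adjusted p = 0.04) in the authors' deposited table, the value nearest to the threshold of 0.05 among the lowered members.

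Of the exosome and integrin tetraspanins, 3 were lower by similar amounts. CD9, on chromosome 12 (6199715 to 6238271), showed a log2 fold change of -0.45 (SE 0.18, 95% interval -0.81 to -0.09, adjusted p = 0.00957) in the authors' deposited table. CD63, a tetraspanin of late endosomes and lysosomes on chromosome 12 (55725323 to 55729707, minus strand), had -0.42 (SE 0.16, 95% interval -0.73 to -0.10, adjusted p = 0.00723) in the authors' deposited table. CD151, on chromosome 11 (832843 to 839831), had -0.34 (SE 0.12, 95% interval -0.57 to -0.11, adjusted p = 0.0055) in the authors' deposited table. The intervals of these 3 genes overlap one another, and all 3 lie nearer to 0 than that of CD82.

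The other 3 members stayed near 0. CD81, the exosome marker and hepatitis C entry factor on chromosome 11 (2376177 to 2397419), had -0.05 (95% interval -0.28 to 0.18, adjusted p = 0.775) in the authors' deposited table. TSPAN4, a tetraspanin of migrasomes on chromosome 11 (842808 to 867116), had -0.04 (95% interval -0.24 to 0.15, adjusted p = 0.801), and TSPAN3, on chromosome 15 (77041404 to 77083984, minus strand), had 0.07 (95% interval -0.14 to 0.28, adjusted p = 0.670) in the authors' deposited table. CD81 and CD9, which are close relatives and share partners, thus had different values, although their intervals overlap.

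In all, 7 of the 10 members were lower and 0 higher by the authors' DESeq2 test, with a median log2 fold change of -0.38. Over all genes of the authors' deposited table, 7.93% were lower and the median was -0.03. Restricted to means from 100 normalized counts up, as all 10 members have, 12.4% of genes were lower, 7.45% were higher and the median was 0.00. Since the members were picked from this contrast, nothing is read from the difference. Of the 7 lowered genes, 5 changed less than 1.5-fold. When the deposited shrunken values were put to a Wald test, 3 remained past the threshold, CD82, TSPAN15 and TSPAN5, while adjusted p was 0.180 for CD9, 0.124 for CD63, 0.0656 for CD151 and 0.255 for TSPAN14. Shrunken values can only weaken calls in this test, here and below, so a lost call shows only that it depends on the test used.

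**Figure D1:**
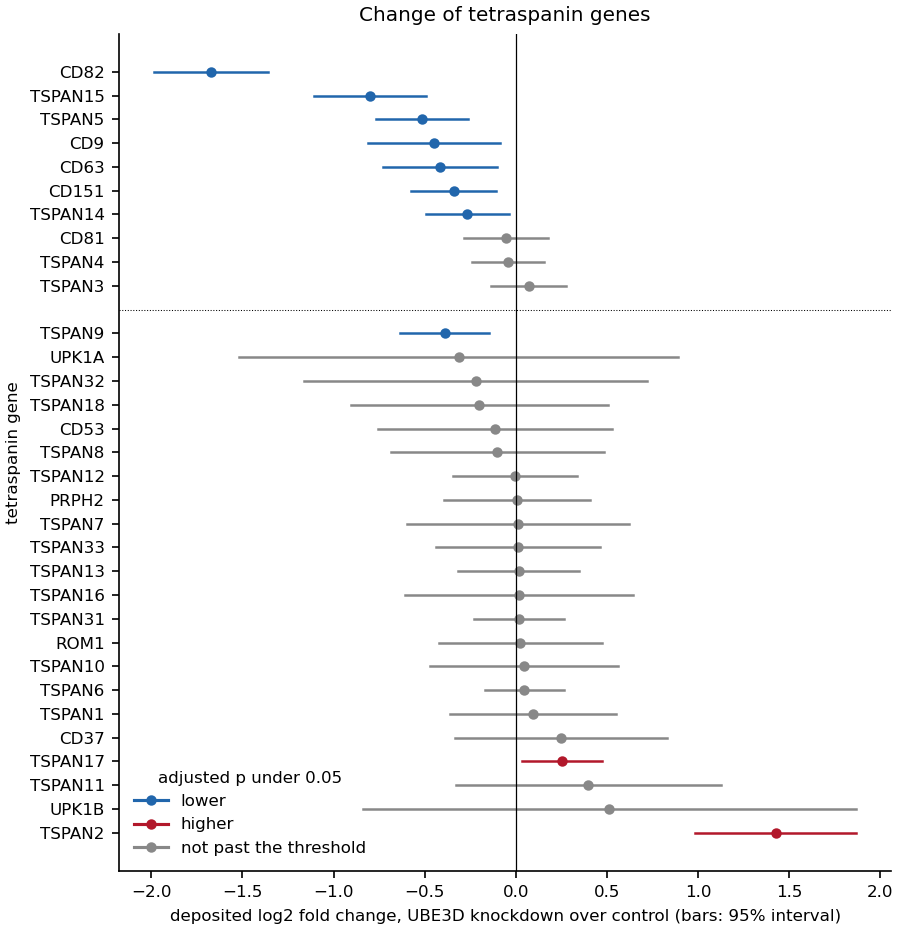
Deposited log2 fold change (horizontal axis, knockdown over control) of 32 tetraspanin genes (vertical axis), the 10 members above the dotted line and 22 other family genes below, with 95% intervals as bars and the authors' call as colour. The intervals of 7 members lie below 0, CD82 farthest at -1.67, and TSPAN2 lies highest at 1.43.

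Levels were compared between genes as mean normalized counts per kb of exon, with both groups in the mean. CD63 had the highest level of the family at 1067 per kb, followed by CD9 (573), CD151 (325), CD81 (219), CD82 (189) and TSPAN3 (181), computed from the authors' deposited table. TSPAN14 (79.7), TSPAN5 (64.3), TSPAN4 (63.0) and TSPAN15 (56.8) came lower on this scale. Exon length here takes in all annotated exons, 17888 bases for TSPAN14, whose mean of 1426 normalized counts was above that of CD151 (1278). Which exons these cells use is unknown, so the order depends on that length. With no spread per library, which neighbours in this order differ cannot be said. Of the 10 highest levels in the family, 9 belonged to members, and the other one to TSPAN17 (115). Members of similar mean over both groups differed in change. CD82 and TSPAN3 had close means (189 and 181 per kb), while their log2 fold changes were -1.67 and 0.07. The mean of CD82 already contains its fall, so the 2 genes need not have close levels within either group.

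**Figure D2:**
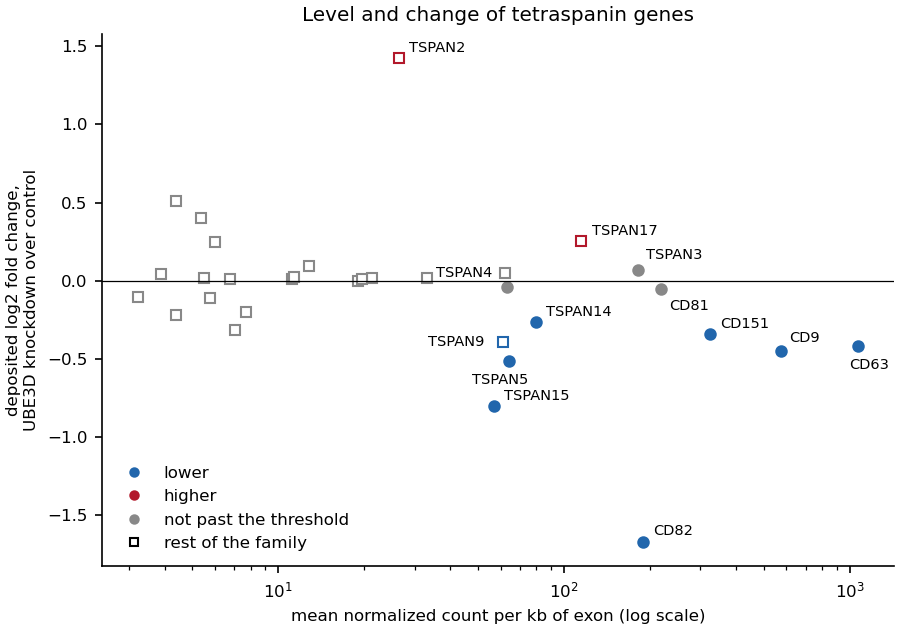
Mean normalized count per kb of exon (horizontal axis, log scale) against the deposited log2 fold change (vertical axis) for 32 tetraspanin genes, filled circles for the 10 members and open squares for the rest of the family. CD82, at 189 per kb, lies far below TSPAN3 and CD81, which have similar means over both groups.

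Of 23 other human tetraspanin genes 22 are in the authors' deposited table, and 1 was lower and 2 were higher, against 7.93% lower and 4.62% higher among all genes. Their median log2 fold change was 0.02. TSPAN2 rose most, to 2.69-fold of the control level (log2 fold change 1.43, SE 0.23, adjusted p = 4.43e-10), with a mean of 89.8 normalized counts, per the authors' deposited table. TSPAN17, a TspanC8 gene, rose by 0.25 (SE 0.11, adjusted p = 0.0452) in the authors' deposited table, a call lost in the Wald test (adjusted p = 0.261). TSPAN9 fell by 0.39 (SE 0.13, adjusted p = 0.00192) in the authors' deposited table. All 6 TspanC8 genes were measured. TSPAN5, TSPAN14 and TSPAN15 were lower, TSPAN17 was higher, and TSPAN10 and TSPAN33 had 0.04 and 0.01 at means of 18.4 and 30.8 normalized counts, per the authors' deposited table.

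Of the 19 other family genes that missed the threshold, TSPAN6 (0.05, SE 0.11), TSPAN31 (0.02, SE 0.13), TSPAN13 (0.02, SE 0.17) and TSPAN12 (0.00, SE 0.17) had the highest means in the authors' deposited table. The 19 ranged from -0.31 to 0.51, with SE from 0.11 to 0.69. Most were rare: 18 of the 22 had a mean below 100 normalized counts. The intervals of 12 of the 19 reach beyond 0.5 in one direction or both, so a change of that size lies within them. The leukocyte tetraspanin genes CD37 and CD53 had means of 24.9 and 12.4 normalized counts, per the authors' deposited table.

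RNA from beyond the end of CD82 was lower by about as much as the gene itself. In the authors' deposited table of DoG regions, the CD82 region stood at -1.74 (SE 0.20, 95% interval -2.13 to -1.34, adjusted p = 5.95e-18) at a mean of 528 normalized counts. It ranked 4 from the lowest among 2014 regions, of which 16.1% were lower and 12.7% higher at the threshold. The region minus the gene came to -0.06 (SE 0.26, 95% interval -0.57 to 0.44), computed from the authors' deposited tables. Region and gene come from the same libraries, so this SE takes their errors as independent when they may not be. Over 1798 regions named for a gene of the table, the same difference had a median of -0.05 and an SD of 0.36.

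The regions of the other 3 members did not pass the threshold in the authors' deposited table. The CD63 region had -0.09 (SE 0.14, adjusted p = 0.634), 0.33 above its gene (95% interval -0.09 to 0.75). For CD151 the region had -0.22 (SE 0.19, adjusted p = 0.228), 0.12 above its gene (95% interval -0.32 to 0.55), in the authors' deposited table. CD151 and TSPAN4 are neighbours on the same strand, 2.98 kb apart, so RNA beyond the end of CD151 runs toward TSPAN4, whose own value was -0.04. The TSPAN4 region had -0.05 (SE 0.14, adjusted p = 0.791) in the authors' deposited table. POLR2L overlaps CD151 on the opposite strand and, per the authors' deposited table, had -0.12 (SE 0.16, adjusted p = 0.508). No source used here states whether counting used strand, so reads of CD151 and POLR2L, or of CD81 and CD81-AS1, may not be told apart.

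**Figure D3:**
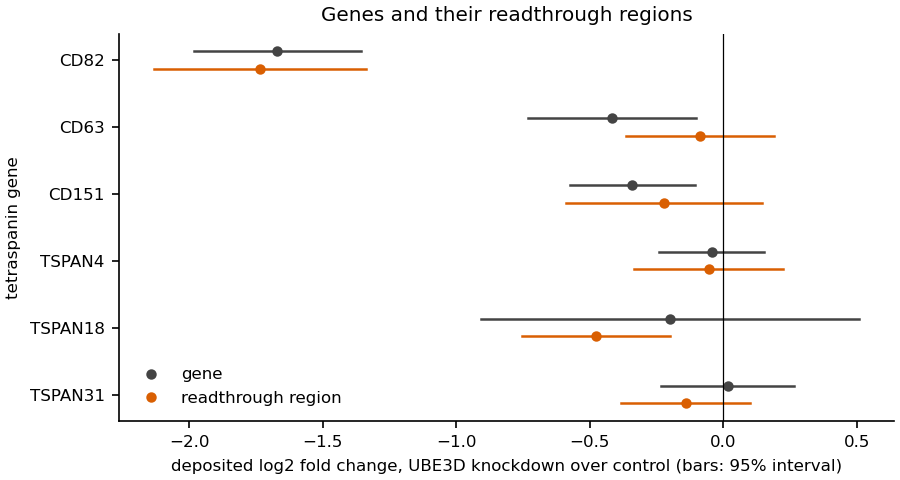
Deposited log2 fold change with 95% interval (horizontal axis) of the gene and of its readthrough region for the 6 tetraspanin genes that have one (vertical axis). Gene and region of CD82 lie side by side at -1.67 and -1.74, and the regions of CD63, CD151, TSPAN4 and TSPAN31 have intervals that include 0.

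Among genes of the authors' deposited table, the next beyond CD82 is another tetraspanin. Genes outside that table or with a repeated symbol were not searched, so others may lie nearer on either side. TSPAN18 begins 106 kb past the end of CD82 on the same strand, and in the authors' deposited table it stood at -0.20 (SE 0.36, adjusted p = 0.357) with a mean of 45.3 normalized counts. The TSPAN18 DoG region fell by 0.48 in log2 terms (SE 0.14, adjusted p = 0.000702) with a mean of 196 normalized counts, per the authors' deposited table. TP53I11 lies across the end of TSPAN18 on the opposite strand and had -0.31 (SE 0.14, adjusted p = 0.0319) in the authors' deposited table. On the other side of CD82, ALX4 lies 254 kb away and had 0.10 (SE 0.28, adjusted p = 0.637) in the authors' deposited table. Neither of these 2 nearest genes passed the threshold, and both are rare with wide intervals.

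Promoter sequences were read for the most changed family genes, upstream of the start that RefSeq gives. RefSeq promoters (GRCh38.p14) matched 25 of the 33 family genes and 7 of the 10 members. The 250 bases before the start are printed for the 3 most lowered members, CD82, TSPAN15 and TSPAN5, and for the raised TSPAN2, with each GC box (GGGCGG on either strand, a motif bound by SP1-type factors) in capitals. They lie at chr11:44565413-44565662 (plus strand), chr10:69451215-69451464 (plus), chr4:98658612-98658861 (minus) and chr1:115089504-115089753 (minus). The RefSeq start of CD82 lies 1236 bases downstream of the outermost GENCODE 29 start given above, so the CD82 window falls inside the gene span of that annotation.
CD82: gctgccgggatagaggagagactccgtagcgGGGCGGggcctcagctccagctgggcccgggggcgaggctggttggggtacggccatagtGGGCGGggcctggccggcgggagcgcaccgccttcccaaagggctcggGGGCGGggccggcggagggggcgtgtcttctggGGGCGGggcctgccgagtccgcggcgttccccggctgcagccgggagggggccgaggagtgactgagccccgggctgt
TSPAN15: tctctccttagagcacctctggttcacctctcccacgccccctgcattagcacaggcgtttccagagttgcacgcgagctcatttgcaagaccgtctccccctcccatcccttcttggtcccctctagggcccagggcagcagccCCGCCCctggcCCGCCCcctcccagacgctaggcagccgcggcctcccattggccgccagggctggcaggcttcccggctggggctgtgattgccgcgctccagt
TSPAN5: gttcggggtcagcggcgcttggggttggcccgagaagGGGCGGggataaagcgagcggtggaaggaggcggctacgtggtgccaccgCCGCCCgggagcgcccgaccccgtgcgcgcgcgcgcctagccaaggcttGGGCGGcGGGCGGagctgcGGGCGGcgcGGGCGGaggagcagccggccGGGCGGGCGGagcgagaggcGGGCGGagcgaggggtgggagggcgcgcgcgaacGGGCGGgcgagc
TSPAN2: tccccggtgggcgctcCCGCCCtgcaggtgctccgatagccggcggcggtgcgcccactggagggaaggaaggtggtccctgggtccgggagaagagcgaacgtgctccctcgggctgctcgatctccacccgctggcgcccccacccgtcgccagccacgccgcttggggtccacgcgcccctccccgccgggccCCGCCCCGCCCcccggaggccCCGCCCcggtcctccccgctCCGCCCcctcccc
The CD82 promoter holds 4 GC boxes, that of TSPAN15 2, that of TSPAN5 10 (neighbouring matches can overlap) and that of the raised TSPAN2 5. Of 35116 promoters, 42.6% hold the motif within the same length and 7.63% hold it at least 4 times. These shares are not matched for GC content, on which a motif of G and C alone depends. GC content was 77.2% for CD82, 67.6% for TSPAN15, 80.0% for TSPAN5 and 79.2% for TSPAN2, against a median of 58.0% over all promoters. None of these 4 promoters has the TATA box letters TATAAA, present in 10.7% of promoters. The AP-2 letters GCCNNNGGC, present in 19.8%, occur 1 time before CD82, 2 times before TSPAN15 and 1 time before TSPAN2. GC boxes thus stand before both lowered and raised genes, and a match is a description of letters only.

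Among the transcripts' 3' ends, a 7-base word was examined because it was already known to be frequent among lowered genes here. GATTGAA occurs in the longest 3' UTR of 24.7% of 1481 lowered genes, against 9.48% of all 16134 genes with an annotated 3' UTR of at least 50 bases. Of the 32 family genes with such a UTR, 1 holds it, TSPAN14, at position 2063 of its 15147 bases. CD82, TSPAN15 and TSPAN5, the 3 most lowered members, do not hold it in UTRs of 1237, 691 and 2155 bases. Partner genes looked up singly were ITGB1, RAB27B, ADAM10, ITGAV and ITGA6, and all but ITGA6 hold the word. They were picked by hand and all are lowered genes, so nothing is read from how many hold it. Their UTRs differ in length, with 1323 bases in ITGB1 and 8740 in ADAM10. A longer UTR has more room for any 7-base word, and the shares above were not matched for length. Which other partner genes hold it was not looked up. The site in TSPAN14 is printed with those in 2 lowered partner genes described next, the word in capitals.
TSPAN14: tggggacatggGATTGAAgcctgggcact
ITGB1: atttctatagcGATTGAAagggcaatagt
RAB27B: tcattgtatttGATTGAAaatgtttaata
No source used here gives the hairpin sequences, and the part of the word in the falls was not tested.

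Integrins, the main lateral partners of CD151, CD9 and CD82, were lower almost throughout. This list and those that follow were drawn up with values of some partner genes already known. Their counts are therefore a description, and the shares of all genes beside them carry no test. Of 10 integrin genes 9 fell and 0 rose by the authors' DESeq2 test, against 7.93% of all genes lower, or 12.4% of those with means from 100 up, and their median log2 fold change was -0.79. ITGA6 fell by 1.37 (SE 0.16, adjusted p = 1.92e-16) and ITGB1, the common beta chain, by 1.28 (SE 0.21, adjusted p = 8.31e-10) in the authors' deposited table. The collagen receptor gene ITGA2 fell by 0.92 (SE 0.11, adjusted p = 1.56e-15) and the fibronectin receptor gene ITGA5 by 0.93 (SE 0.09, adjusted p = 2.19e-26) in the authors' deposited table. ITGA7, named after its value was seen as the 1 exception, had 0.01 (SE 0.26) and a mean normalized count of 32.3 in the authors' deposited table. In the Wald test on the shrunken values 5 of the 9 stayed past the threshold.

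Immunoglobulin-type partners differed among themselves. Of 7 genes 4 fell and 0 rose (2 in the Wald test), against 7.93% lower among all genes, with a median of -0.28. Among the 5 with means from 100 up 2 fell, against 12.4% of all such genes. PTGFRN, the partner of CD9 and CD81 known as EWI-F, fell by 1.70 (SE 0.37, adjusted p = 2.08e-06) and its relative IGSF3 had -1.41 (SE 0.34, adjusted p = 1.75e-05) in the authors' deposited table. Their means were 72.5 and 81.6 normalized counts. ICAM1 (-0.33, SE 0.12, adjusted p = 0.00747) and L1CAM (-0.28, SE 0.12, adjusted p = 0.0302) were lower by less in the authors' deposited table. IGSF8, the EWI-2 partner of CD82, CD9 and CD81, was named after its value was seen and had 0.14 (SE 0.12, adjusted p = 0.357) in the authors' deposited table.

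Receptors and proteases tied to tetraspanins were lower in 7 of 15 cases (5 in the Wald test) and higher in 1, against 7.93% and 4.62% of all genes and 12.4% and 7.45% of those with means from 100 up. Their median log2 fold change was -0.25. MMP14, the membrane protease, fell by 1.10 (SE 0.17, adjusted p = 4.61e-11) and TIMP1, a ligand of CD63, by 0.51 (SE 0.11, adjusted p = 2.57e-06) in the authors' deposited table. EPCAM (-0.67, SE 0.21, adjusted p = 0.000783) and the kinase gene PRKCA (-0.39, SE 0.11, adjusted p = 0.00025) were lower too in the authors' deposited table. CDH1, the gene for E-cadherin, rose by 1.06 (SE 0.39, adjusted p = 0.00125, and 0.0966 in the Wald test) at a mean of 74.9 normalized counts, per the authors' deposited table. ADAM10, the protease that TspanC8 proteins carry, was named after its value was seen and had -0.34 (SE 0.15, adjusted p = 0.0237, and 0.249 in the Wald test) in the authors' deposited table. EGFR and MET, receptors that CD82 is known to restrain, also named after their values were seen, had -0.05 (SE 0.10) and -0.25 (SE 0.14, adjusted p = 0.0923) in the authors' deposited table. Of 7 Notch and ADAM10 substrate genes, NOTCH1 (-0.21, SE 0.08, adjusted p = 0.0426) and CD44 (-0.26, SE 0.12, adjusted p = 0.0427) were lower and CDH1 higher in the authors' deposited table, against the same shares of all genes, and 0 of the 7 passed the Wald test in either direction.

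Genes of exosome formation and release, for which CD9, CD63 and CD81 serve as markers, included 7 of 21 that fell (6 in the Wald test) and 0 that rose, with a median of -0.11. Of all genes 7.93% were lower, and 12.4% of those with means from 100 up, as 20 of the 21 have. RAB27B and RAB27A, small GTPases that dock exosome-bearing endosomes at the membrane, fell by 1.83 (SE 0.19, adjusted p = 3.81e-21) and 1.10 (SE 0.14, adjusted p = 3.55e-14) in the authors' deposited table. VPS4B, an ATPase of ESCRT disassembly, fell by 1.24 (SE 0.14, adjusted p = 8.63e-19) and RAB31 by 0.74 (SE 0.15, adjusted p = 1.31e-06) in the authors' deposited table. The remaining 14 genes did not pass, TSG101, HGS and PDCD6IP among them, which were named after their values were seen (-0.11, -0.14 and -0.28 in the authors' deposited table).

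Known regulators of CD82 were not called. Of 11 genes, which include the transcription regulators KAT5, TFAP2A and CTNNB1, 0 passed the authors' DESeq2 threshold, 0 had an unadjusted p under 0.05 and 0 passed the Wald test. Among all genes 12.5% passed that DESeq2 threshold, and 19.8% of those with means from 100 up, as all 11 have. With so short a list, nothing is read from 0 of 11. Their values ran from -0.09 to 0.11, and RUVBL1, with the smallest p, had 0.11 (SE 0.14, adjusted p = 0.558) in the authors' deposited table. These are transcript levels and say nothing of protein activity. Over all partner and pathway lists, 32 of 98 genes fell and 2 rose, and 20 fell in the Wald test. The share of all genes lower in the Wald test was not computed, so counts from that test have no background here. The shares that follow belong to the DESeq2 counts. Of all genes 7.93% fell and 4.62% rose, and of those with means from 100 up, as 78 of the 98 have, 12.4% and 7.45%.

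**Figure D4:**
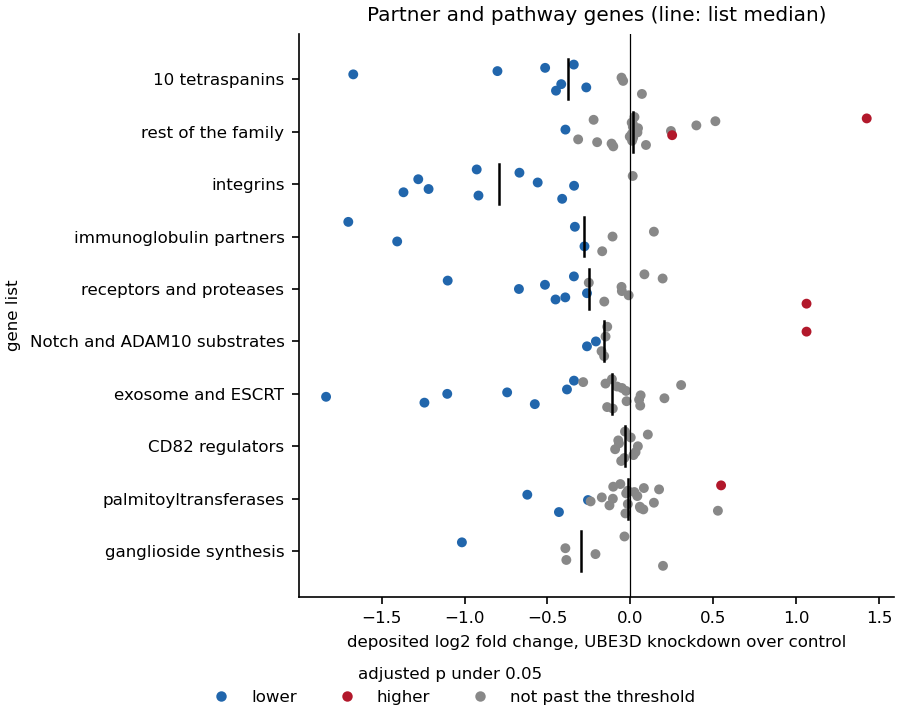
Deposited log2 fold change (horizontal axis) of each gene in 10 lists (vertical axis), coloured by the authors' call at an adjusted p under 0.05, with a line at each list's median. Integrins lie farthest left with a median of -0.79, and CD82 regulators gather around 0.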

How the data were processed

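RNA-seq of 3 control and 3 UBE3D knockdown samples of MDA-MB-231 cells was used as 2 result tables. Per the submitters' processing notes, the tools were STAR 2.5.2b, cutadapt 1.8.1 and DESeq2, on hg38. How reads were counted, on which annotation and strand setting, and how DoG regions were called is not given in the sources used here. Per the file headers, the authors deposited for each row a mean normalized count (a signal averaged over the libraries), a log2 fold change, its SE in log2 units, and the p-value before and after adjustment. Adjusting the p-values by Benjamini-Hochberg over each table gave back the deposited ones. The log2 fold changes are shrunken: divided by SE in the 10 members they reach 0.725 to 0.973 of the quantile that the p-value implies. Genes with means under 7.74 were not analysed here, and some genes and sequences are not reported here. With unknown depth, precision rests on the deposited SE.

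Genes were called at a deposited adjusted p under 0.05. Members, gene lists and alternatives were chosen with earlier results of these data known, among them values of some partner and marker genes. Named were all members, family genes past the threshold and the 4 most abundant others, up to 4 genes per partner list by p-value (or 1 where none passed), the nearest genes of CD82 and UBE3D. Intervals are fold change plus or minus the 95% normal quantile times SE. Positions and exon lengths come from GENCODE 29, promoters from RefSeq. Adjustment and Wald test were tested on simulated data. Those data were not shrunken, so they do not show how the Wald test behaves on the deposited values. Alternatives were thresholds of 0.01 and 0.1, adjustment over genes with a mean of at least 100, the Wald test, and a shift to a median of 0. Python 3.11.15, numpy 2.4.6, pandas 2.3.3, scipy 1.17.1 and matplotlib 3.10.9 were used.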

Additional observations from a re-analysis of the deposited data

How the results depend on the processing

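No paired analysis was possible because the files hold no value per library, and for the same reason no library could be left out. Of the 10 members, 6 were lower at a threshold of 0.01 and 7 at 0.1 or when adjusted over genes with a mean of at least 100. The Wald test on the deposited values gave 3, also after the shift to a median of 0. Of the rest of the family, 2 were lower at a threshold of 0.1 and 0 in the shifted Wald test, while 1 was higher at 0.01 and in both Wald tests (TSPAN2) and 1 when adjusted over genes with a mean of at least 100 (TSPAN17), which leaves 4 of them tested and TSPAN2 out. Partner genes numbered 20 lower in the Wald test and 18 in the shifted one. In both 1 was higher, and 1 when adjusted over abundant genes, ZDHHC3 in each case. Shares of all genes were not computed under these alternatives, so the counts show only how calls move. Of the 45 genes past the threshold among members, other family genes, partner lists and UBE3D, 19 lost their call in the Wald test, 22 in the shifted one and 7 at 0.01, and none changed direction in any of these. Of 21 others tried that did not pass, MET and PDCD6IP passed at 0.1, PDCD6IP also when adjusted over abundant genes (adjusted p = 0.0387), and TSPAN12 moved across 0 to 0.0224 with the shift. The CD82 region minus its gene was -0.06 as deposited, and under both shifts it moved by less than its SE.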

Other observations

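Tetraspanins are palmitoylated, and of 23 palmitoyltransferase genes 3 were lower and 1 was higher in the authors' deposited table, near the 7.93% and 4.62% of all genes (12.4% and 7.45% at means from 100 up), with a median log2 fold change of -0.02. ZDHHC3 rose by 0.55 (SE 0.09, adjusted p = 5.86e-10), while ZDHHC6 fell by 0.62 (SE 0.12, adjusted p = 4.88e-07) and ZDHHC7 by 0.43 (SE 0.15, adjusted p = 0.00354) in the authors' deposited table. ZDHHC5 had -0.26 (SE 0.11, adjusted p = 0.0442). The calls of ZDHHC7 and ZDHHC5 were lost in the Wald test (adjusted p = 0.0681 and 0.261). ZDHHC2, a known enzyme for CD9 and CD151 that was named after its value was seen, had 0.17 (SE 0.13, adjusted p = 0.281) in the authors' deposited table.

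Gangliosides assemble with CD82 and CD9 in the membrane. Of 6 genes of their synthesis, ST3GAL5, which makes GM3, fell by 1.02 (SE 0.24, adjusted p = 1.09e-05) at a mean of 76.1 normalized counts, per the authors' deposited table. The other 5 did not pass the threshold, although 4 of the 6 had an unadjusted p under 0.05 (DESeq2). Thus 1 of 6 was lower and 0 higher, near the 7.93% and 4.62% of all genes for so short a list. Among the 3 with means from 100 up, 0 were lower, against 12.4% of all such genes.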
